A study of Mus musculus with 4 samples.

Results

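The mitochondrial ribosomal protein genes were the protein-coding genes with an Mrpl or Mrps symbol followed by a number in GENCODE M21, the mouse annotation to which the deposited Ensembl identifiers were matched. There were 77 of them among the 23552 genes measured, 48 named for the large subunit (Mrpl) and 29 for the small subunit (Mrps). RNA-Seq was performed on c-Kit+ leukemic cells enriched from the bone marrow of moribund C57BL/6 mice (C57BL/6J in the study's methods) with acute myeloid leukemia (AML) induced by MLL-AF9, a fusion oncogene that the cells of both groups carried. Control cells overexpressed eGFP alone (control, libraries 3 and 4) and SUV-OE cells overexpressed Suv39h1 with eGFP (libraries 2 and 3), in both cases from a viral vector, and all 4 libraries were labelled as RNAseq batch 2. Suv39h1 is a histone methyltransferase that trimethylates lysine 9 of histone H3. The labels do not say whether the 2 libraries of a group came from separate mice, so every p-value below measures only the spread between these libraries, which may be technical.

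The mitochondrial ribosome, or mitoribosome, translates the few messenger RNAs encoded by mitochondrial DNA, all of them for subunits of the respiratory chain and ATP synthase. Its ribosomal RNAs are made inside the organelle, but its proteins are encoded in the nucleus, made in the cytosol and imported. The small subunit binds the messenger RNA and holds the decoding centre, and the large subunit forms the peptide bond. Leukemic stem cells of AML are known to rely on respiration, and inhibitors of mitochondrial translation are known to impair them.

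Each value is an FPKM, the fragments per kilobase of exons, scaled by the authors to a common library size, so that a comparison between genes rests on the exon length used for each. The whole reads behind the FPKM could be recovered, as 18313574 to 21499661 per library over all genes and as 104 to 1890 per mitoribosomal gene and library. Suv39h1 itself was measured at 12.4 FPKM in control 3 and in control 4, against 75.3 in SUV-OE 2 and 81.2 in SUV-OE 3. Kit, the marker used for the enrichment, was at 20.4 and 19.2 against 28.6 and 25.4. The other markers of these leukemic cells were present in every library, with Cd34 at 26.5 to 39.8, Fcgr3 at 117 to 190, Hoxa9 at 40.1 to 57.3 and Meis1 at 13.5 to 17.2 FPKM, while the T-cell receptor complex genes Cd3d, Cd3e and Cd3g stayed below 0.3 FPKM in every library. The 2 control libraries stood apart from each other for many genes, among them the mitochondrially encoded messenger RNAs, which summed to 9437 FPKM in control 3 and to 17978 in control 4. The main counts below are therefore also given without single libraries.

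Promoters of mitoribosomal genes are known for binding sites of NRF1, of ETS factors such as GABPA, and of YY1. RefSeq (GRCm38.p6) gave a promoter of 300 bases, from 250 before to 50 after the start, for 68 of the 77 genes. The 5 windows shown run 5′ to 3′ on the strand of the gene, from 120 bases before to 30 after its start, and capitals mark the motifs found on either strand. Mrpl22 is shown because it held both an NRF1 and an ETS motif, Mrps18a because it held both an ETS and a YY1 motif, and Mrps23, Mrps16 and Mrpl58 as genes with an ETS motif at opposite ends of the order of fold changes given further on.
Mrpl22: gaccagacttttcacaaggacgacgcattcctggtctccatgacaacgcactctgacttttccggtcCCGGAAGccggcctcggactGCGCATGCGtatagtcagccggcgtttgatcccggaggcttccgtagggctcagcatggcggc
Mrps18a: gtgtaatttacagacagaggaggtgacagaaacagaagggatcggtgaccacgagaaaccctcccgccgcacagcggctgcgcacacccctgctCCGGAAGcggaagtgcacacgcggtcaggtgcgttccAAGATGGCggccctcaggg
Mrps23: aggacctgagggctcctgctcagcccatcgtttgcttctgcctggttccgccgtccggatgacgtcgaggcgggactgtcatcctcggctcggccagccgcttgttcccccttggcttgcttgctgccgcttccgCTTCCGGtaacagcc
Mrps16: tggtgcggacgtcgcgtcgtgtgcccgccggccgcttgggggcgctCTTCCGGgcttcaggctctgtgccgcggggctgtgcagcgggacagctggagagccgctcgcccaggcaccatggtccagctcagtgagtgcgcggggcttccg
Mrpl58: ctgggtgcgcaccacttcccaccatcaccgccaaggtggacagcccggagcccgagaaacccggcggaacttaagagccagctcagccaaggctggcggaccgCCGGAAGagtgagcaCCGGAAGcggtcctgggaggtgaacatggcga
The Mrpl22 window was chr11:58171544-58171693 on the plus strand, that of Mrps18a chr17:46110884-46111033 (plus), that of Mrps23 chr11:88204268-88204417 (plus), that of Mrps16 chr14:20393461-20393610 (minus) and that of Mrpl58 chr11:115403632-115403781 (plus).

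The ETS motif CCGGAAG was present in 24 of the 68 promoters, 35.3%, against 19.9% of the 8771 promoters of all protein-coding genes tested and 9.12% of all 27025 promoters in the table. The YY1 motif AAGATGGC was found in 12 (17.6% against 5.18% and 2.88%), and the NRF1 motif GCGCATGCG in 7 (10.3% against 4.07% and 1.81%). The MYC E-box CACGTG was in 5 (7.35% against 10.6% and 7.24%) and the SP1 motif GGGCGG in 34 (50% against 64.8% and 35.9%). None of these motifs contains the letters of another, and a promoter could hold several. At least 1 of the NRF1, ETS and YY1 motifs was present in 36 of the 68 (52.9%), against 27% of the tested protein-coding genes. By subunit, the ETS motif was in 13 of 42 large-subunit and 11 of 26 small-subunit promoters. The median log2 fold change between SUV-OE and control was -0.32 for the 24 genes with the ETS motif and -0.36 for the other 44. It was -0.39 with and -0.33 without the YY1 motif, and -0.31 with and -0.33 without the NRF1 motif. For the MYC E-box it was -0.44 with and -0.33 without, and for the SP1 motif -0.40 with and -0.31 without. A match of these letters is a description of the sequence and shows no binding.

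All 77 genes were expressed, and the small-subunit genes lay below the large-subunit genes in the median. Every one of them was above the filter of a mean FPKM of 0.5, with means over the 4 libraries from 4.11 to 87.4 and a median of 16.5, against 6.75 over all 13736 genes that passed the filter. The median was 19.4 for the large subunit and 11.7 for the small subunit. Mrpl42, a protein of the mitochondrial large subunit without a bacterial counterpart, was the highest, with FPKM of 86.5 and 114 in control, compared with 65.7 and 83.6 in SUV-OE. Mrps16, a conserved small-subunit protein, came next in the order with 76.8, 97.3, 54.7 and 64.3, in the order control 3, control 4, SUV-OE 2 and SUV-OE 3 that is kept below. Mrps21, the counterpart of bacterial S21, had 47.4, 92.8, 62.1 and 76.3. Mrpl42 was the highest of the 77 in all 4 libraries, whereas the order of Mrps16 and Mrps21 differed between control and SUV-OE. These ranks rest on the exon length: the deposited values of Mrpl42 and Mrps16 came out as whole reads at 666 and 566 bases, against 3682 and 2875 bases of exons in GENCODE M21. At the GENCODE lengths their means of 87.4 and 73.3 FPKM would be 15.8 and 14.4, below the 69.6 of Mrps21, for which both lengths were 739 bases. The lowest were Mrps35 (4.44, 4.86, 3.57 and 3.56), Mrpl47 (3.83, 5.86, 3.56 and 3.83) and Mrps25 (4.03, 5.32, 4.28 and 5.40), whose ranges overlapped. At the GENCODE length Mrps30 would be lower still, with 2.48 in place of its deposited mean of 10.4.

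Most of the 77 genes had a lower mean FPKM in SUV-OE than in control, with a median change of -23.7% and a range from -54.2% to 17.0%. The comparison asks how Suv39h1 overexpression altered gene expression in the leukemic cells, and in bulk RNA fewer cells of a type and less RNA per cell cannot be told apart. The log2 fold change, taken as the difference of the mean log2(FPKM + 1) and therefore understating the change of weakly expressed genes, was negative for 71 of 77 genes (92.2%), against 53% of all genes tested. The median was -0.33, against -0.02 over all genes, and the values ran from -0.93 (Mrpl12) to 0.21 (Mrps30). In 54 genes (70.1%) both SUV-OE libraries lay below both control libraries, against 28.4% of all genes. In 1 gene, Mrps30, both lay above, against 25.4% of all genes. That count came to 10 without control 4 (40.3% of all genes) and to 5 without SUV-OE 2 (33% of all genes). The count of genes below control was 72 without control 3 (93.5%, against 43.4% of all genes) and 54 without control 4 (70.1%, against 43.7%). It was 55 without SUV-OE 2 (71.4%, against 36.4%) and 66 without SUV-OE 3 (85.7%, against 37.8%).

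No single gene passed the threshold for a DEG. With limma and Benjamini-Hochberg adjustment over all 13736 genes, 0 of the 77 were DEGs (at least 1 log2 unit up or down, with an adjusted p-value under 0.05), against 1.22% of all genes, and 0 had an adjusted p-value under 0.05 at any fold change, against 1.29%. At an unadjusted p-value under 0.05, 25 were lower (32.5%, against 10.4% of all genes) and 0 were higher (against 10.3%), or 2 without control 4 (13.3% of all genes). The smallest adjusted p-value was 0.0798, for Mrpl16. The count of 25 depended on the libraries. It was 1 without SUV-OE 2 (1.3%, below the 2.89% of all genes), 9 without SUV-OE 3 (11.7%, against 3.59%), 22 without control 4 (28.6%, against 14.9%) and 41 without control 3 (53.2%, against 12.8%). limma-voom on the recovered reads called 1 gene of the 77 (1.3%, below the 6.99% of all genes), Mrps28, at an adjusted p-value of 0.0466.

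**Figure D1:**
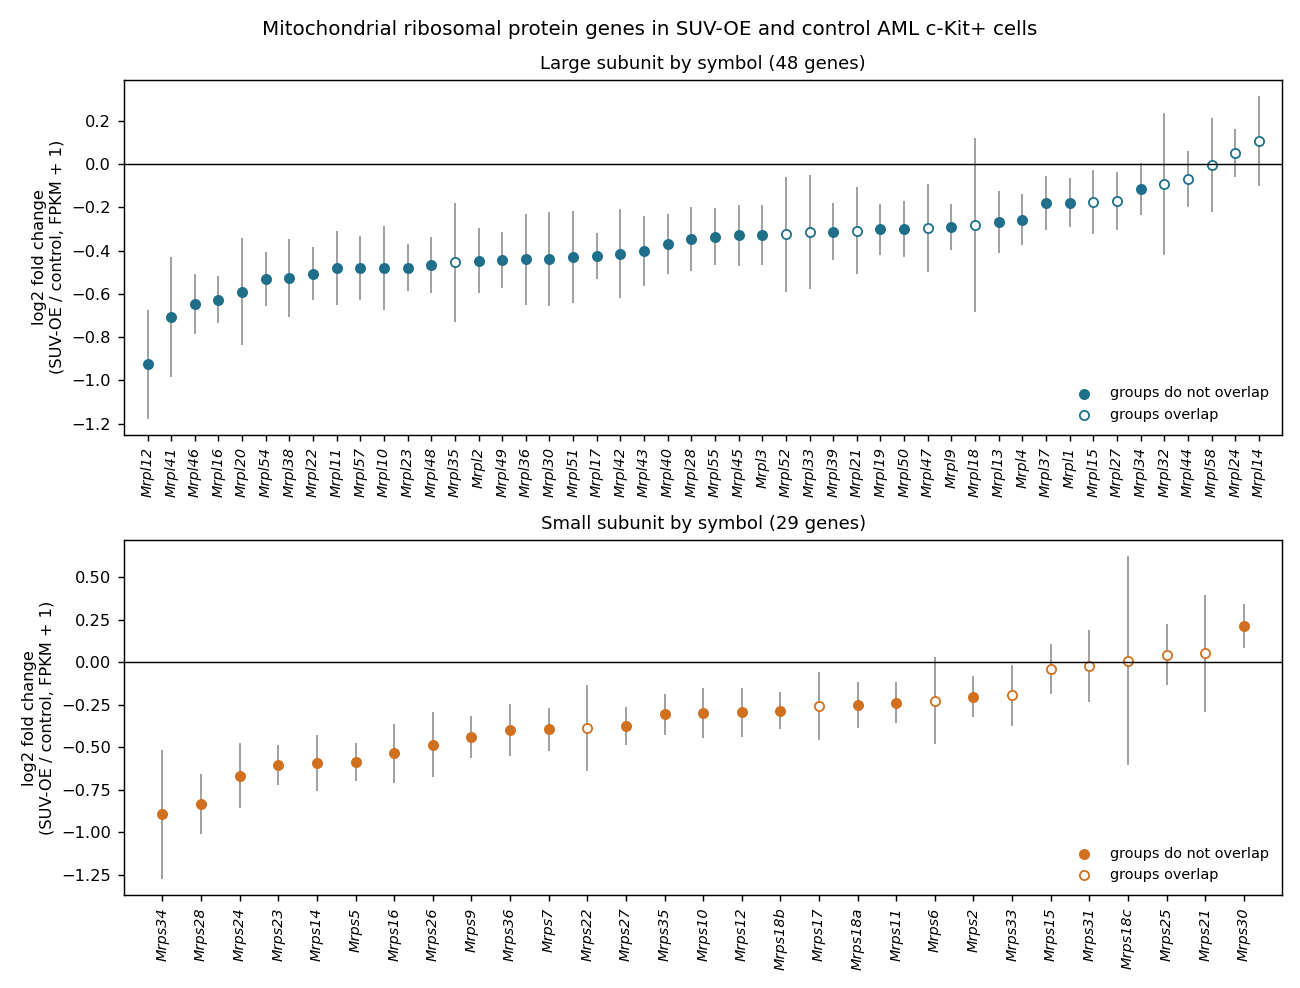
Log2 fold change of each gene on the log2(FPKM + 1) scale (vertical axis, SUV-OE against control, n = 2 libraries each), with the standard error from limma as a bar, for 48 large-subunit (top) and 29 small-subunit genes (bottom), each ordered by value along the horizontal axis. Filled points mark genes whose groups do not overlap, and 46 of the 48 and 25 of the 29 points lie below 0.

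Across libraries the shift followed the groups, but the libraries within a group were not equal. The summed FPKM of the 77 genes was 1859 in control 3, 2175 in control 4, 1432 in SUV-OE 2 and 1627 in SUV-OE 3. The mean log2(FPKM + 1) over the 77 genes was 4.37 ± 0.14 (SD, n = 2) in control and 4.03 ± 0.11 (SD, n = 2) in SUV-OE. Both SUV-OE sums lay below both control sums. Control 4 was the highest library for 52 genes and SUV-OE 2 the lowest for 53. Between single libraries, SUV-OE 2 was below control 3 for 66 genes and below control 4 for 76, and SUV-OE 3 was below control 3 for 55 and below control 4 for 72. Within the groups, control 4 was below control 3 for 20 genes and SUV-OE 3 below SUV-OE 2 for 15. The median difference within a pair of the same group, 0.19 between the control and 0.18 between the SUV-OE libraries on the log2(FPKM + 1) scale, was thus as large as that between the closest pair of opposite groups, -0.17 from control 3 to SUV-OE 3. The same differences over all genes tested were between -0.02 and 0.00.

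**Figure D2:**
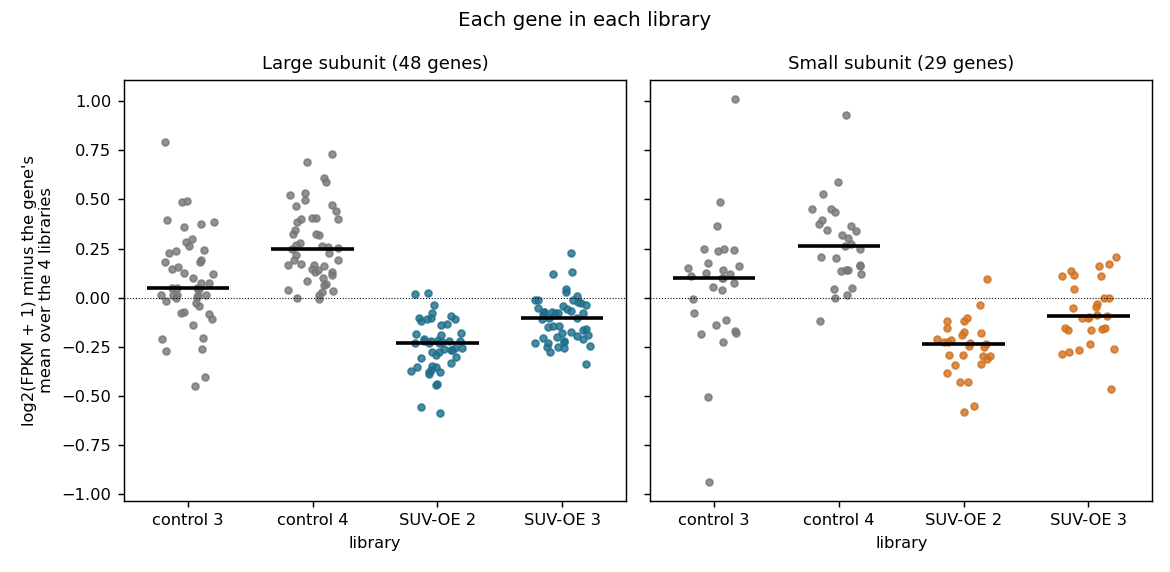
Each point is 1 gene in 1 library, plotted as its log2(FPKM + 1) less its own mean over the 4 libraries (vertical axis), for the large (left) and small subunit (right), and black lines are medians. Control 4 is the highest and SUV-OE 2 the lowest of the libraries in both subunits, with control 3 and SUV-OE 3 between them.

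The shift was similar in the 2 subunits. The median log2 fold change was -0.34 for the 48 large-subunit genes, of which 46 were negative (95.8%), 35 did not overlap below control (72.9%) and 15 were lower at an unadjusted p-value under 0.05 (31.2%). It was -0.30 for the 29 small-subunit genes, of which 25 were negative (86.2%), 19 did not overlap below control (65.5%) and 10 were lower at an unadjusted p-value under 0.05 (34.5%). The shares over all genes were 53%, 28.4% and 10.4%. Without SUV-OE 2 the counts at an unadjusted p-value under 0.05 were 1 and 0 for the large and small subunit (2.08% and 0%, below the 2.89% of all genes), without SUV-OE 3 they were 4 and 5 (8.33% and 17.2%, against 3.59%), and without control 3 they were 27 and 14 (56.2% and 48.3%, against 12.8%). The difference of the medians, -0.04, turned to 0.02 with quantile normalization. The mean log2(FPKM + 1) of the large-subunit genes less that of the small-subunit genes was 0.51 and 0.48 in control, compared with 0.49 and 0.44 in SUV-OE, so that the groups overlapped. The ratio of the summed FPKM of the large to the small subunit was 2.24 and 2.13 in control, compared with 2.23 and 2.13 in SUV-OE, again with overlap. Symbols do not always match the place of the protein: Mrps30 and Mrps18a are known parts of the large subunit, and Mrps36 is known as a subunit of the 2-oxoglutarate dehydrogenase complex. With these reassigned, the medians were -0.33 and -0.30.

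**Figure D3:**
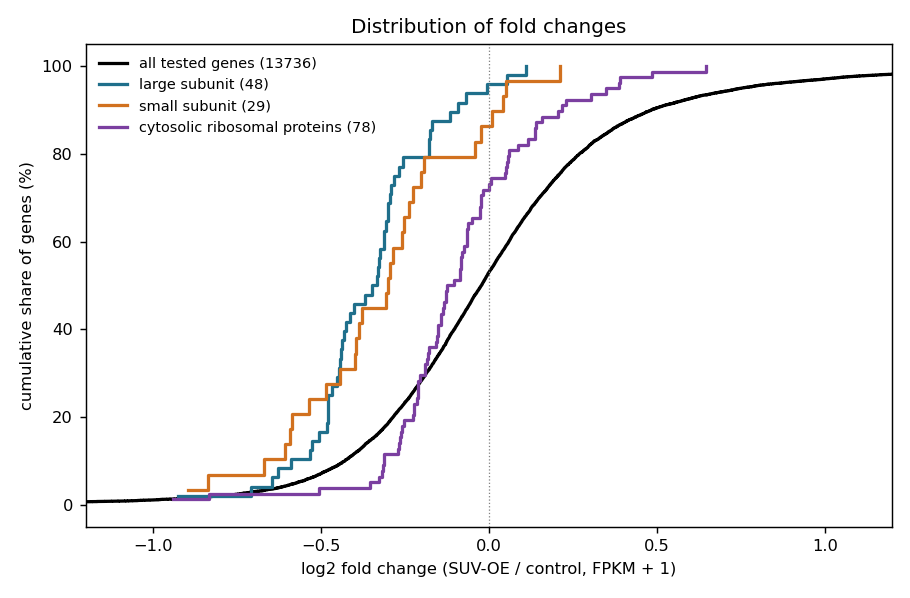
Cumulative share of genes (vertical axis, %) at or below each log2 fold change (horizontal axis, SUV-OE against control, log2(FPKM + 1) scale) for the large and small subunit, cytosolic ribosomal protein genes and all tested genes; values beyond ±1.2 are not drawn. Over most of the range the large- and small-subunit curves lie to the left of the other curves, with medians of -0.34 and -0.30 against -0.11 for cytosolic ribosomal protein genes and -0.02 for all genes.

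Among large-subunit genes, the lowest fold change was that of Mrpl12 (ENSMUSG00000039640, chr11:120484613-120489065), whose protein forms the flexible stalk that recruits translation factors and is also known to bind the mitochondrial RNA polymerase. Its FPKM was 30.1 in control 3, 18.6 in control 4, 10.9 in SUV-OE 2 and 13.2 in SUV-OE 3. Both SUV-OE libraries were below both controls, but the controls differed by more than 1.5 times (log2 fold change -0.93, SE 0.25, limma adjusted p = 0.154). It was -0.59 without control 3 and -1.26 without control 4. The exons of Mrpl12 overlap a lincRNA on the opposite strand, and the library kit does not keep strand. Mrpl11, at the base of the same stalk, had 14.1, 18.01, 10.1 and 12.3 (log2 fold change -0.48, SE 0.17, and -0.32 without control 4). Mrpl10, the protein that anchors the stalk, had 28.9, 20.2, 16.3 and 17.9, with a log2 fold change of -0.48 as well (SE 0.19). It was added after its values were seen. For all 3 stalk genes the groups did not overlap, as for 70.1% of the 77 genes and 28.4% of all genes below control.

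Mrpl16 (ENSMUSG00000024683, chr19:11770391-11774960), a conserved protein near the peptidyl transferase centre, had closely matched replicates. It was at 32.6 and 33.2 in control, against 20.4 and 21.6 in SUV-OE, a log2 fold change of -0.63 (SE 0.11, limma adjusted p = 0.0798). The values of each group lay close together, and the groups were well apart. The deposited values of Mrpl16 came out as whole reads at an exon length of 1122 bases rather than the 3169 bases of GENCODE M21, as they did at another length for 20 of the 77 genes in all, Mrpl42 and Mrps16 among them. A length used for every library leaves the ratios between libraries unchanged.

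Mrpl46 (ENSMUSG00000030612, chr7:78775236-78783531) and Mrpl41 (ENSMUSG00000036850, chr2:24974117-24975098) encode proteins specific to mitochondrial ribosomes. Mrpl46 had 22.9 and 25.8 in control, against 13.9 and 16.5 in SUV-OE (log2 fold change -0.65, SE 0.14, limma adjusted p = 0.11), and Mrpl41 had 64.95 and 104.2 against 43.4 and 57.7 (-0.71, SE 0.28). Neither gene had overlapping groups, although control 4 alone was far above the other 3 libraries for Mrpl41, whose log2 fold change was -0.37 without control 4 and -1.04 without control 3. Mrpl20, a protein that binds the ribosomal RNA early in assembly, had 34.2 and 53.4 against 25.2 and 31.3 (-0.59, SE 0.25; -0.28 without control 4 and -0.90 without control 3), and Mrpl54, also specific to mitochondrial ribosomes, had 48.7 and 42.6 against 30.9 and 31.5 (-0.53, SE 0.12). Mrpl46 and Mrps11 (chr7:78783119-78792989) overlap at their starts on opposite strands, where reads of the 2 genes cannot be told apart. Mrps11 had 9.02, 9.69, 7.34 and 8.21 and a smaller log2 fold change of -0.24.

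The large-subunit genes with the highest fold changes did not differ between the groups beyond their spread. Mrpl14, whose protein lies at the interface of the subunits, had 11.3, 15.6, 12.6 and 16.4 (log2 fold change 0.11, SE 0.21). Mrpl24 was close to even in every library, at 33.1, 35.8, 35.7 and 35.8 (0.05, SE 0.11). Mrpl58, a peptidyl-tRNA hydrolase that releases peptides from stalled ribosomes, had 5.91, 8.95, 6.55 and 8.05, with log2 fold change -0.004 and overlapping groups. Its promoter was shown above with 2 ETS motifs. Mrpl3, a conserved core protein, was lower in both SUV-OE libraries, at 11.99 and 9.96 against 8.99 and 8.07 (-0.33, SE 0.14, and -0.20 without control 3).

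Among small-subunit genes, Mrps34 (ENSMUSG00000038880, chr17:24895116-24897502), a mitochondria-specific protein, had the lowest fold change and rested on 1 library. Its FPKM was 17.2 in control 3 but 7.32 in control 4, against 5.71 and 5.53 in SUV-OE (log2 fold change -0.90, SE 0.38, limma adjusted p = 0.274). The log2 fold change was -0.33 without control 3 and -1.46 without control 4. Its exons overlap Nme3 on the same strand and Mapk8ip3 on the other. Mrps28 (ENSMUSG00000040269, chr3:8802146-8923918), the counterpart of bacterial S1, had 51.5 and 65.4 against 29.1 and 35.3, groups that were clearly apart (-0.84, SE 0.18, limma adjusted p = 0.108). Under the other fits its adjusted p-value ran from 0.0466 with limma-voom to 0.594 without SUV-OE 2.

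In Mrps23 and Mrps5 the replicates were closely matched. Mrps23 (ENSMUSG00000023723, chr11:88204388-88211507), a mitochondria-specific protein, had 49.3 and 53.9 in control, against 32.6 and 34.5 in SUV-OE (log2 fold change -0.61, SE 0.12, limma adjusted p = 0.0967). Mrps5 (ENSMUSG00000027374, chr2:127587222-127606829), a conserved protein of the small-subunit body, had 10.9 and 11.7 against 7.11 and 7.32 (-0.59, SE 0.11, limma adjusted p = 0.0923). With Mrpl16, these were the 3 genes with the lowest limma adjusted p-values of the 77, from 0.0798 to 0.0967. Mrps24, the counterpart of bacterial S3, had 32.3 and 30.9 against 16.3 and 23.3 (-0.67, SE 0.19, and -0.42 without SUV-OE 2), and Mrps14, the counterpart of bacterial S14, had 20.6 and 25.8 against 13.6 and 16.5 (-0.59, SE 0.17). Both belong to the head of the subunit, and in both the groups were apart. Reads of Mrps24 could be shared with Urgcp, which overlaps it on the same strand. Mrps16, the small-subunit gene with the highest deposited FPKM, had a log2 fold change of -0.54 (SE 0.18), and its 4 values, given above, did not overlap between groups.

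The 3 paralogs of bacterial S18 differed in their spread. Mrps18a had 9.35, 9.54, 7.04 and 8.57, with both SUV-OE values below both controls (log2 fold change -0.25, SE 0.13, and -0.13 without SUV-OE 2). Mrps18b had 8.27, 8.51, 6.50 and 6.92, again without overlap (-0.28, SE 0.11). Mrps18c had 4.97 in control 3 and 20.8 in control 4, with 9.64 and 11.3 in SUV-OE between them, and its log2 fold change of 0.01 (SE 0.61) was -0.93 without control 3 and 0.94 without control 4. Mrps12, of the decoding centre, had 38.0, 36.5, 27.2 and 33.4 (-0.30, SE 0.14, and -0.15 without SUV-OE 2). Mrps36 had 16.6, 20.6, 12.8 and 14.8 (-0.40, SE 0.15, and -0.25 without control 4), and processed pseudogenes named after it, at 0 to 0.968 FPKM, could share reads with it.

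Mrps30 was the single gene with both SUV-OE libraries above both controls. It had 8.70 and 10.4 in control, against 11.1 and 11.3 in SUV-OE, a log2 fold change of 0.21 (SE 0.13, limma adjusted p = 0.419), which did not pass the test and was 0.09 without control 3 and 0.33 without control 4. Its exons overlap another protein-coding gene on the opposite strand. Mrps21 (47.4, 92.8, 62.1 and 76.3) and Mrps25 (4.03, 5.32, 4.28 and 5.40) had log2 fold changes of 0.05 and 0.04, and in both the SUV-OE values lay between or beside the control values.

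The 2 control libraries were far apart for some of the genes. They differed by more than the fold change in 29 genes and by over 1.5 times in FPKM + 1 in 12, of which 10 were higher in control 4 and 2, Mrps34 and Mrpl12, higher in control 3. For the 65 genes whose controls differed by at most 1.5 times on that scale, 61 had a negative log2 fold change, with a median of -0.33. Transcripts richer in G and C tended to be lower in control 4 than in control 3. Over the 77 genes, which share the same 4 libraries, Spearman's rho between GC content of the longest transcript and the difference control 4 minus control 3 was -0.35, and over 13692 tested genes -0.33, whereas with the difference SUV-OE minus control it was -0.13 over the 77 genes and -0.06 over all. After a correction of each library for GC content and transcript length, 69 of the 77 genes had a negative log2 fold change, with a median of -0.31. Exons of 32 of the 77 genes overlap another annotated gene, 27 of them on the opposite strand, and of the 45 without overlap 44 had a negative log2 fold change, with a median of -0.37.

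**Figure D4:**
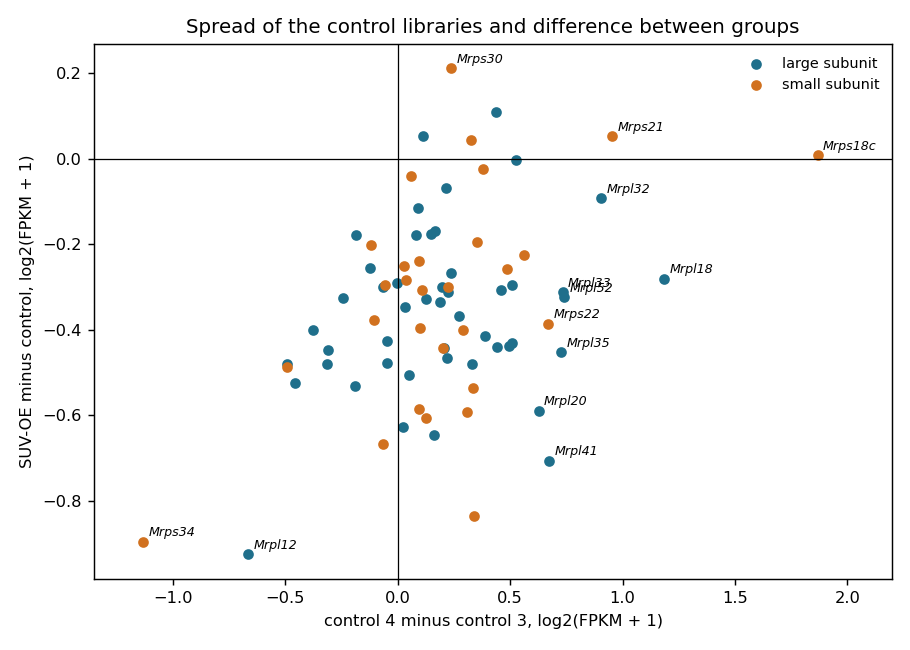
Difference between the control libraries (horizontal axis, control 4 minus control 3) and between the groups (vertical axis, SUV-OE minus control) for each of the 77 genes, both on the log2(FPKM + 1) scale. Most genes lie below 0 on the vertical axis whichever control library was higher, and named points are the 12 genes whose control libraries differed by over 1.5 times in FPKM + 1, and Mrps30.

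Mitoribosomal protein genes outside the Mrp symbols had negative fold changes as well, and assembly factors smaller ones. Of 5 mitoribosomal protein genes with other symbols, all 5 had a negative log2 fold change, with a median of -0.41. Aurkaip1 had 54.6 and 70.3 in control, against 41.1 and 43.4 in SUV-OE (-0.54), Dap3, a GTP-binding protein of the small subunit, had 13.6 and 14.5 against 9.94 and 10.6 (-0.42), and the highest was Ptcd3 (-0.27). Of 31 assembly factors, 27 were negative (53% of all genes) and 18 did not overlap below control (58.1%, against 28.4% of all genes), with a median of -0.15. The lowest was Tfb1m, which dimethylates the small-subunit ribosomal RNA, at 10.4 and 10.8 against 6.71 and 6.15 (-0.64, SE 0.11, limma adjusted p = 0.084), followed by the ribosomal RNA methyltransferase Mrm3 (-0.40), and the highest was Lyrm7 (0.24), better known for the assembly of respiratory complex III. With limma 0 of these 36 genes passed at an adjusted p-value of 0.05, and limma-voom called 0. At an unadjusted p-value under 0.05, limma gave 2 of the 5 other mitoribosomal protein genes as lower (40%). It gave 2 of the 31 assembly factors (6.45%), beside 10.4% of all genes. Leaving out single libraries moved both counts.

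The genes that act with the mitoribosome had medians between -0.17 and -0.05, which single libraries moved. Of 12 translation factors, 8 were negative, with a median of -0.05 (-0.13 to -0.01 without single libraries). Values ran from the release factor family member Mtrf1 (-0.43) and the translational activator Taco1 (-0.38) to Gfm2 (0.05). Of 22 genes for charging mitochondrial tRNAs, 15 were negative, with a median of -0.13 (-0.13 to -0.08), from Gars (-0.51) and Qrsl1 (-0.51) to Lars2 (0.74). Lars2 had 10.4, 27.6, 24.8 and 34.1, so its groups overlapped. Of 22 genes of mitochondrial transcription and RNA processing, 16 were negative, with a median of -0.17 (-0.20 to -0.10), from Hsd17b10, a subunit of mitochondrial RNase P (-0.44), and Fastkd3 (-0.43) to the helicase Twnk (0.29). In these 3 lists 0 of 56 genes had an adjusted p-value under 0.05 with limma, 9 were lower at an unadjusted p-value under 0.05 (16.1%, against 10.4% of all genes, and 0 to 11 genes without single libraries), and limma-voom called 0.

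The RNAs that the mitoribosome translates, and its own RNAs, showed no common direction. Of 12 tested messenger RNAs encoded by mitochondrial DNA, 6 were negative and 6 positive, with a median of 0.03, and none separated the groups. The sign followed the control library, with 12 of the 12 negative without control 3 and 1 negative without control 4. The range ran from mt-Nd4l (-0.49) and mt-Nd1 (-0.45) to mt-Nd6 (0.31). Both mitochondrial ribosomal RNAs were positive, mt-Rnr1 at 205, 469, 326 and 416 FPKM (0.24) and mt-Rnr2 at 191, 486, 351 and 575 (0.56), again with overlapping groups, and both were negative without control 3. Ribosomal RNA lacks long poly(A) tails and library preparation selects against it, so these levels count only what the kit retained.

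The cytosolic ribosomal protein genes, which build the other ribosome of the cell, had a median nearer to 0 with all 4 libraries, but not without control 3. Of 78 genes, 56 were negative, with a median log2 fold change of -0.11, and 10 did not overlap below control, 12.8% beside the 28.4% of all genes. Without control 3 that count was 73 (93.6%, against 43.4% of all genes), and without SUV-OE 3 it was 32 (41%, against 37.8%). The direction rested on control 4, since the median was 0.19 without it and -0.45 without control 3. It was 0.03 without SUV-OE 2. For the 77 mitoribosomal genes the median was -0.25 without control 4, -0.42 without control 3 and -0.27 without SUV-OE 2. Without control 3, 72 of them (93.5%) did not overlap below control, a share close to that of the cytosolic genes. The summed FPKM of the cytosolic genes was 60111 and 96716 in control, compared with 64687 and 78095 in SUV-OE. These groups overlapped, unlike the sums of the mitoribosomal genes. The lowest were Rpl23a (49.5 and 53.9 against 27.1 and 25.8, log2 fold change -0.94, limma adjusted p = 0.0474) and Rpl35 (-0.83), and the highest was Rps27 (0.64). Rpl23a was the 1 gene of this list that passed the adjusted test (1.28%, beside 1.29% of all genes), none passed without any single library, and genes of this family share reads with many pseudogenes. Whether the 2 families differed was not tested.

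**Figure D5:**
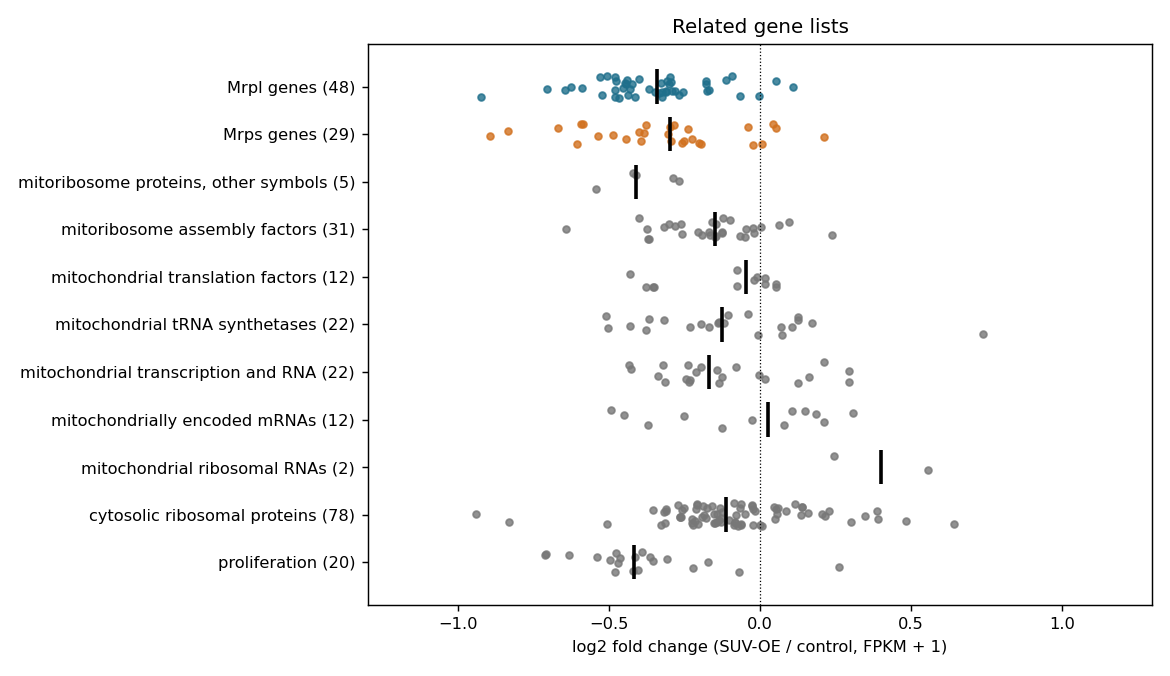
Log2 fold change (horizontal axis, SUV-OE against control, log2(FPKM + 1) scale) of the tested genes in each list (rows, number of genes in brackets), with 1 point per gene and the median as a black line. Medians are -0.34 for Mrpl and -0.30 for Mrps genes, -0.41 for the other mitoribosomal proteins, -0.42 for proliferation genes, and between -0.17 and 0.03 for the lists in between apart from the 2 ribosomal RNAs (0.40).

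Proliferation genes were mostly lower in SUV-OE too, and several markers of other cell types were higher. Of 20 proliferation genes, 19 were negative and 17 did not overlap below control (85%, against 28.4% of all genes), with a median of -0.42 (-0.25 without control 3 and -0.54 without control 4) and summed FPKM of 1474 and 1293 in control, compared with 982 and 1073 in SUV-OE. Ccne1 (8.94 and 9.60 against 5.27 and 5.26) and Rrm2 (95.8 and 77.2 against 50.6 and 53.9) were the lowest, at -0.71 each, and Mki67 was the highest (0.26), while 0 of the 20 passed limma's adjusted threshold, 8 were lower at an unadjusted p-value under 0.05 (40%, against 10.4% of all genes, and 1 to 12 genes without single libraries) and limma-voom called 1. Of 9 tested genes for Myc, its partner and the nuclear factors known to act on mitochondrial genes, 7 were negative with a median of -0.08, from Ppargc1b (-0.45) and Esrra (-0.23) to Myc itself (0.11), which had 59.2, 45.4, 58.8 and 53.6.

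In the same libraries, B lymphoid markers summed to 62.1 and 80.4 FPKM in control and to 195 and 312 in SUV-OE, with 13 of 14 tested genes positive, from Cd79b (-0.06) and Rag2 (0.27) to Dntt (3.28). Neutrophil markers summed to 5920 and 8186 against 10353 and 12597, with 11 of 15 positive, from Ctsg (-0.95) and Cebpe (-0.37) to Ltf (2.95). Erythroid markers summed to 43.0 and 169 against 170 and 142, with 12 of 13 positive, from Tfrc (-0.28) and Hba-a2 (0.12) to Car1 (2.98), although 6 of the 13 were negative without control 3. With limma 1 of the 14 B lymphoid, 2 of the 15 neutrophil and 3 of the 13 erythroid genes had an adjusted p-value under 0.05 (1.29% of all genes), and with limma-voom 11, 9 and 5 (6.99% of all genes), while without any single library limma called 0. Of the T and NK markers 3 of 12 passed the filter, Lck (-0.59), Nkg7 (-0.20) and Cd4 (0.44). The part that proliferation, other cell types and the gap between the control libraries had in the lower level of the mitoribosomal genes was not tested.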

How the data were processed

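RNA-Seq FPKM of AML c-Kit+ cells were analysed for 2 control and 2 SUV-OE libraries, grouped by the genotype in the labels. According to the study's methods, the authors prepared TruSeq RNA v2 libraries and aligned paired-end reads to mm10 with TopHat2 and calculated FPKM with Cufflinks. The submitters' processing notes also name CASAVA 1.8. The authors deposited 1 FPKM per gene and library for 23552 genes. The annotation release is not given in the sources used here.

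Identifiers were matched to GENCODE M21 (23438 matched). A pseudocount of 1 was added to the deposited FPKM before log2, and 13736 genes (mean FPKM 0.5 or more over the 4 libraries) were compared with limma 3.58.1 (R 4.3.3), with the group as the only term, an intensity trend and Benjamini-Hochberg adjustment. DESeq2, named in the study, was not used because the unit is FPKM. Whole reads were recovered from the FPKM steps (78.5% of genes whole at the GENCODE exon length within 0.01, against 0.388% at the length of a random gene). For 4611 genes another length was taken, so that the totals per library are approximate. At 3 reads on 1 kb of exons the FPKM was 0.154 to 0.178, which covers counting error only. limma-voom on these reads (a mean of at least 10), other scalings, filters, pseudocounts, thresholds and leaving out each library were alternatives. The correction for GC content and transcript length, by natural splines, was added after seeing the data. The fit reported, quantile normalization, median-of-ratios scaling, the fit without the intensity trend, limma-voom and the GC and length correction were tested on simulated data. The other filters, the other pseudocount and the fits without single libraries were not.

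The genes and lists were chosen with earlier results of these data known. The genes named one by one were, in each subunit, the 6 lowest and 3 highest fold changes, the 3 highest and 3 lowest levels, 10 genes by role and, in each list, the 2 lowest and the highest fold changes. Other genes were named after their values were seen. Motifs were searched on both strands of RefSeq promoters of GRCm38.p6. Positions of genes are from GENCODE M21 (mm10). No set test was run. Figures were drawn with matplotlib 3.10.9.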

Additional observations from a re-analysis of the deposited data

How the results depend on the processing

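No paired analysis was possible because only the number 3 occurs in both groups. Without single libraries the number of DEGs over all genes was 0 to 0, against 168 with all 4; it was also 0 with no filter on low values, 342 at an adjusted p-value under 0.1 and 761 with limma-voom. Mitoribosomal genes with an adjusted p-value under 0.05 numbered 1 with limma-voom, below the share of all genes (6.99%). With limma 3 passed at 0.1, where the share of all genes at any fold change was not counted. Leaving out single libraries gave 1 to 41 genes lower and 0 to 2 higher at an unadjusted p-value under 0.05, 1 to 10 with both SUV-OE libraries above control (10 without control 4 and 5 without SUV-OE 2), and a small-subunit median of -0.41 to -0.25. Above control, quantile normalization gave 3 (24.1% of all genes), limma-voom 2 (34.6% of all genes) and the GC and length correction 2 (27.0% of all genes). With limma-voom, which scales by all reads, the median of all genes moved from -0.02 to 0.09 and the share of negative genes from 53% to 41.2%, while 66 of the 77 genes were negative with a median of -0.26, and thus 0.34 below all genes, against 0.31 in the fit reported. Over all alternatives 63 (without control 4) to 76 (without control 3) of the 77 genes were negative, with medians of -0.25 to -0.42, and the difference between the subunit medians, -0.04, was 0.0188 with quantile normalization, -0.00782 with a pseudocount of 0.1, -0.00525 with limma-voom and -0.0277 to 0.000241 without single libraries.

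Of the 77 genes, 15 changed sign under at least 1 alternative and 8 with all libraries kept. Without control 4 they included Mrpl18 (from -0.28 to 0.31), Mrpl32 (from -0.09 to 0.36), Mrpl52 (from -0.32 to 0.0450), Mrpl33 (from -0.31 to 0.0542) and Mrps6 (from -0.23 to 0.0548). The genes described one by one that changed sign were Mrpl58 (0.10 with limma-voom, 0.0473 with the GC and length correction, and -0.27 to 0.26 without single libraries), Mrpl24 (-0.00274 without control 3, up to 0.11 without control 4), Mrpl14 (-0.11 without control 3 to 0.33 without control 4, and -0.06 without SUV-OE 3), Mrps25 (-0.0263 with quantile normalization, -0.00217 with the GC and length correction, and -0.12 to 0.21 without single libraries), Mrps21 (-0.43 without control 3 to 0.53 without control 4) and Mrps18c (-0.00319 with median-of-ratios scaling, and -0.93 without control 3 to 0.94 without control 4). The cause was not tested for any of these values. In a group with 1 library left, that library is assumed to vary like those of the other group.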

Other observations

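Many mitoribosomal genes start head to head with another gene. A protein-coding gene on the opposite strand started within 1000 bases upstream for 18 of the 77 genes (23.4%), against 11.1% of the 10969 protein-coding genes tested. Of the 17 partners that were tested, 12 had a negative log2 fold change (70.6%, against 53% of all genes). Their median was -0.16, against -0.02 over all genes. The pairs did not always move together: Mrps12 (-0.30) lies beside Sars2 (-0.38), the mitochondrial seryl-tRNA synthetase gene, and Mrps27 (-0.38) beside Ptcd2 (-0.33), whereas Mrps34 (-0.90) lies beside Eme2 (0.11) and Mrpl41 (-0.71) beside Pnpla7 (0.05). These pairs were chosen after their values were seen.

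Of the processed pseudogenes named after mitoribosomal genes, Mrpl23-ps1 was listed at 6.65 and 5.11 FPKM in control and at 4.57 and 3.10 in SUV-OE, and Mrpl23 itself at 37.4 and 36.2 against 25.6 and 26.7. Sharing of reads between the 2 was not tested.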
